A study of Mus musculus with 24 samples.

Results

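The wild-type step between mid-pregnancy and lactation was examined in 6 of the 24 arrays of a mouse series: the 3 arrays coded Lac10 and the 3 coded dp12, all from wild-type animals, chosen by their genotype and stage labels. The series used single-colour arrays for total RNA, in 8 groups of 3, and the subject of the series is BRCA1 in pregnancy. The Lac10 animals weighed 28, 39 and 39 g and the dp12 animals 38, 42 and 34 g, in the order of replicates 1, 2 and 3, and per the labels all came from a mixed background of FVB, 129SVEV and Black Swiss (80%, 10% and 10%). No drug, transgene or other agent is named for the wild-type animals, neither the tissue nor the allele of the mutant groups is named, and a treatment text that describes an RNA pull-down does not match the total RNA named elsewhere. The codes are read here as day of lactation and day of pregnancy, while the design text calls the same numbers months. Within each group the weights differ, except that Lac10 replicates 2 and 3 share 39 g, and whether every array came from its own animal is not stated. The tests rest on the spread among arrays, which between Lac10 replicates 2 and 3 may be technical.

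In the mouse mammary gland, pregnancy is the time of growth: progesterone and prolactin drive the branching ducts to fill with alveoli, and the luminal cells of the alveoli divide. After birth progesterone falls away, prolactin acts through its receptor, JAK2 and STAT5, and the alveolar cells stop dividing and turn to making milk proteins, lactose and fat. Contractile myoepithelial cells around them eject the milk, a dense capillary bed supplies amino acids, glucose, lipids and calcium, and fat cells lose their lipid stores.

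One array did not lie with its group. The array labelled Lac10 replicate 1 correlated with the 3 dp12 arrays at 0.9593 to 0.9735 over the genes tested, and with Lac10 replicates 2 and 3 at 0.9405 and 0.9331. Lac10 replicates 2 and 3 correlated with each other at 0.9739, and the dp12 arrays among themselves at 0.9791 to 0.983. The array labelled Lac10 replicate 1 matched mutant dp12 replicate 1 best (0.983), and its animal had the lowest body weight of the 6. The titles also mark replicate 1 as white and replicates 2 and 3 as brown, and carry no such word for the dp12 arrays, and the part of this in the results was not tested. Results below are therefore given with and without it, and values of 3 arrays are always in the order of replicates 1, 2 and 3.

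Differences are log2 values, Lac10 minus dp12, with the standard error (SE) of limma's fit over all 24 arrays, where the median SE was 0.2997. Of 15234 genes tested, 9 passed an adjusted p of 0.05 (Benjamini-Hochberg), which is 0.0591% of them: 5 higher (0.0328%) and 4 lower (0.0263%) at Lac10. An unadjusted p under 0.05 was reached by 1911 genes. The median difference over all genes was -0.05. The 3 Lac10 arrays lay above the 3 dp12 arrays in 1966 genes (12.9%) and below them in 3584 (23.5%), which is the background for the counts of non-overlapping genes below. Without Lac10 replicate 1 the same fit called 536 genes (3.52%), 190 higher (1.25%) and 346 lower (2.27%), and the 9 were among them. Without Lac10 replicate 2, Lac10 replicate 3, dp12 replicate 1 or dp12 replicate 3 it called 0, with 986 to 1221 genes at an unadjusted p under 0.05, and without dp12 replicate 2 it called 11. Lac10 replicate 1 was singled out by its correlations over these same genes. Leaving it out therefore tends to widen the gap to dp12 and to narrow the Lac10 spread. The calls made without it, here and below, are descriptive. Centring the arrays on 20 housekeeping genes moved the median of all genes to 0.09 and called 22 genes higher and 1 lower. Before centring these 20 were themselves lower at Lac10 (median -0.25, and -0.56 in mutants). Of them 2 were higher and 9 (45%) lower without overlap, and 0 were called. This centring is therefore an alternative scale and not a stable reference.

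The 5 genes that rose include a hormone, a neurotransmitter receptor and membrane proteins. Gsdmc, of the gasdermin family of pore-forming proteins, had log2 values of 4.99, 7.94 and 8.31 at Lac10, against 4.17, 4.09 and 3.76 at dp12. It rose by 3.07 (SE 0.57, adjusted p = 0.0499), and by 4.12 without Lac10 replicate 1, whose value lay nearer to the dp12 arrays than to its own group. Whether the probe set tells Gsdmc from its close paralogues was not checked. Drd4, the dopamine D4 receptor, stood at 7.65, 9.49 and 9.34 at Lac10, against 6.08, 6.40 and 5.51 at dp12, a rise of 2.83 (SE 0.48, adjusted p = 0.0481). Slc9a2, a sodium and proton exchanger, measured 5.27, 6.94 and 6.90 at Lac10, against 4.65, 4.84 and 4.23 at dp12, a rise of 1.79 (SE 0.33, adjusted p = 0.0499). In these 3 genes replicate 1 was the lowest Lac10 array but still above the dp12 arrays.

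Lep and Lrrc26 rose on all 3 Lac10 arrays with little spread among them. Lep, which encodes the fat-cell hormone leptin, was at 6.82, 7.50 and 7.59 at Lac10, against 5.12, 4.84 and 4.91 at dp12, a rise of 2.35 (SE 0.44, adjusted p = 0.0499). Lrrc26, an accessory subunit of a large-conductance potassium channel of secretory epithelia, was at 7.72, 7.92 and 7.86 at Lac10, against 6.34, 6.37 and 6.44 at dp12. Its rise of 1.45 (SE 0.25, adjusted p = 0.0481) was much larger than the spread inside either group. At dp18 Lep already averaged 6.86 ± 0.65 (SD, n = 3), while Lrrc26 averaged 6.82 ± 0.17; dp18 replicate 1 is among the arrays of lowest correlation with the rest (0.7867).

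The 4 genes that fell were AI506816, Fbn2, Pi15 and Epha7. AI506816, a long non-coding RNA in RefSeq, measured 4.71, 5.50 and 5.26 at Lac10, against 7.32, 7.24 and 7.04 at dp12, and fell by 2.04 (SE 0.34, adjusted p = 0.0481). Fbn2, which encodes the microfibril protein fibrillin 2, stood at 5.06, 5.13 and 5.20 at Lac10, against 7.06, 6.22 and 7.07 at dp12. It fell by 1.65 (SE 0.29, adjusted p = 0.0481). Pi15, a secreted peptidase inhibitor, was at 5.39, 4.58 and 4.47 at Lac10, against 6.31, 5.99 and 7.03 at dp12, and fell by 1.63 (SE 0.30, adjusted p = 0.0499). Epha7, an ephrin receptor kinase, was at 5.36, 5.28 and 4.93 at Lac10, against 6.61, 6.33 and 6.73 at dp12, and fell by 1.37 (SE 0.25, adjusted p = 0.0499). Replicate 1 sat with the other Lac10 arrays in Fbn2, AI506816 and Epha7.

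**Figure D1:**
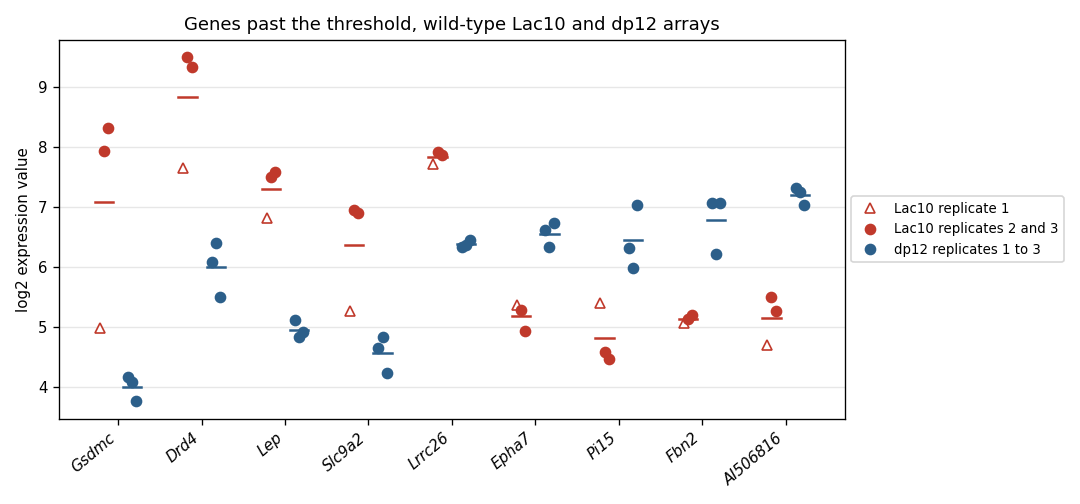
Log2 expression values (vertical axis) of the 9 genes past the threshold on the 3 wild-type Lac10 arrays (red) and the 3 dp12 arrays (blue), with Lac10 replicate 1 as an open triangle and bars at group means. The 3 Lac10 arrays lie above the dp12 arrays in Gsdmc, Drd4, Lep, Slc9a2 and Lrrc26 and below them in AI506816, Fbn2, Pi15 and Epha7.

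Caseins, the main proteins of milk, were already high at dp12, with 1 exception. Csn2, beta-casein, measured 12.86, 13.06 and 12.82 at Lac10, against 12.54, 12.79 and 12.83 at dp12, and the groups overlapped (difference 0.20, SE 0.40). In wild-type virgin animals Csn2 already averaged 12.05 ± 0.58 (SD, n = 3), while Csn3 averaged 9.68 ± 0.38. The Csn2 values lie near the top of the range of the arrays. Whether its probe set could still register a rise was not tested. Csn3, kappa-casein, stood at 11.04, 11.60 and 11.62 at Lac10, against 10.88, 11.04 and 10.70 at dp12 (difference 0.54, adjusted p = 0.47). The exception was Csn1s2b, an alpha-S2-type casein, at 6.47, 11.47 and 11.24 at Lac10, against 4.31, 4.96 and 4.06 at dp12. Its difference of 5.28 (SE 1.13) missed the threshold with an adjusted p of 0.0666, and without Lac10 replicate 1 it passed at 6.91 (SE 1.00, adjusted p = 0.00116). Across the 5 caseins the median difference was 0.34, 2 had groups that did not overlap, both higher, and 1 passed without replicate 1.

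The promoter windows of Csn2 and Wap are shown as those of a casein whose groups overlapped and of a whey protein whose groups did not, and the capitals mark the letters TTCNNNGAA, the palindrome that STAT factors bind. They are RefSeq sequences on build GRCm38.p6, from 250 bases before to 50 bases after the gene's start, read 5′ to 3′ on the gene's strand, both of them minus. Csn2 lies at chr5:87699376-87699675 and Wap at chr11:6638600-6638899.
Csn2: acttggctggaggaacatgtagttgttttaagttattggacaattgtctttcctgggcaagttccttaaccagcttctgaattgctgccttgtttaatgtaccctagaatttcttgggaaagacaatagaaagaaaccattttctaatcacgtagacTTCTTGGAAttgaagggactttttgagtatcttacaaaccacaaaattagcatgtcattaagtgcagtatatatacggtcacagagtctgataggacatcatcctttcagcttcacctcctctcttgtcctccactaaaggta
Wap: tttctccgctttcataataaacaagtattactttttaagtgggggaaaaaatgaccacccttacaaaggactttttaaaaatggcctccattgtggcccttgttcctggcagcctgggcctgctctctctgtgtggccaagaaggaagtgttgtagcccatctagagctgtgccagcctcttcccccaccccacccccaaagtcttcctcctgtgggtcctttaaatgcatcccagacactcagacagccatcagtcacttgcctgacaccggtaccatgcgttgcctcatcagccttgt
Csn2 held 1 match and Wap 0 in these windows, which says nothing about sites outside them. The letters occurred in 9.55% of 27025 genes with such a window, in 3 of 3 caseins and in 2 of 15 whey and other secreted milk protein genes.

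Whey and other secreted milk protein genes were the list with the highest median difference, 1.38 over 18 genes, and 12 had Lac10 arrays that lay above the dp12 arrays while 0 lay below. The median level of the list was 10.54, 10.55 and 10.89 on the Lac10 arrays, against 8.47, 9.82 and 8.58 on the dp12 arrays, so by this median replicate 1 sat with its group. The sum of linear values over the list was 31673, 43848 and 46812 at Lac10, against 16197, 24791 and 17542 at dp12. By that sum replicate 1 lay between the groups. Of the 18, 0 passed in the fit of all arrays and 7 passed as higher without Lac10 replicate 1. Wap, whey acidic protein, measured 11.23, 11.93 and 12.12 at Lac10, against 8.45, 9.86 and 7.98 at dp12. Its difference was 3.00 (SE 0.58, adjusted p = 0.0571), and 3.26 without replicate 1 (adjusted p = 0.0109). Wap averaged 11.12 ± 0.30 (SD, n = 3) at dp18.

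Lalba, the subunit that turns a galactosyltransferase into lactose synthase, was at 11.22, 12.64 and 12.66 at Lac10, against 7.39, 10.06 and 8.39 at dp12. The groups did not overlap, yet the dp12 arrays spread widely and the difference of 3.56 (SE 1.03) had an adjusted p of 0.127, and 0.059 without replicate 1. Cel, the bile salt-stimulated lipase of milk, stood at 10.95, 11.93 and 11.92 at Lac10, against 8.25, 9.01 and 8.04 at dp12, and passed without replicate 1 (difference 3.49, adjusted p = 0.0185). Antimicrobial proteins of milk went the same way: Ltf, lactoferrin, passed without replicate 1 at 2.54 and Lpo, lactoperoxidase, at 2.90. Muc1, a mucin of the apical membrane, passed there at 2.11. In the lactose and sugar supply list, 5 of 12 genes had higher and 1 had lower non-overlapping Lac10 arrays (median 0.34). B4galt1, the enzyme that Lalba modifies, had 10.56, 11.07 and 11.27 at Lac10, against 10.02, 10.43 and 9.71 at dp12 (difference 0.92, adjusted p = 0.247).

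**Figure D2:**
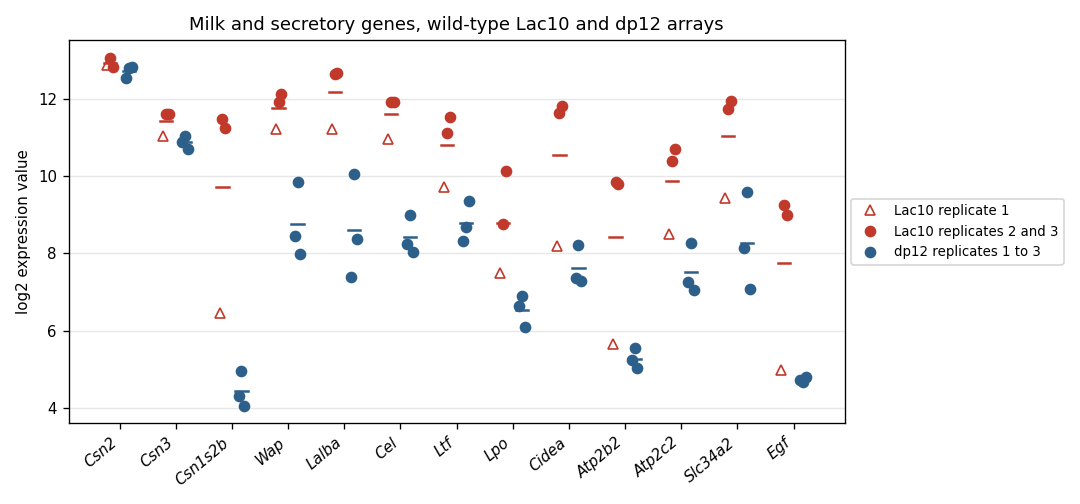
Log2 expression values (vertical axis) of 13 milk, fat and transport genes on the wild-type Lac10 arrays (red, replicate 1 as an open triangle) and dp12 arrays (blue), with bars at group means. Csn2 and Csn3 are near level between the stages, and Wap and Lalba have the 3 Lac10 arrays above the dp12 arrays. In Atp2b2 and Egf replicate 1 lies near dp12, and in Csn1s2b it lies between dp12 and the other Lac10 arrays.

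Fatty acid synthesis had the second highest median, 1.00 over 20 genes. In 11 of them the Lac10 arrays lay above the dp12 arrays and in 2 below; 0 passed in the fit of all arrays and 6 passed as higher without Lac10 replicate 1, where the median was 1.43. Acaca, the acetyl-CoA carboxylase that commits carbon to fatty acids, measured 9.59, 10.47 and 10.73 at Lac10, against 8.51, 8.75 and 7.77 at dp12 (difference 1.92, SE 0.50, adjusted p = 0.0886). Acacb, the second carboxylase, was at 6.57, 9.64 and 10.03 at Lac10, against 6.16, 6.89 and 5.70 at dp12. Slc25a1, the mitochondrial citrate carrier, was at 9.76, 11.65 and 11.86 at Lac10, against 9.47, 9.45 and 9.20 at dp12. Without replicate 1, Acaca, Acacb and Slc25a1 passed at 2.25, 3.58 and 2.38, as did Acss2, which makes acetyl-CoA from acetate, at 2.08 and the elongase Elovl5 at 1.99. In each of these genes replicate 1 was the lowest of the Lac10 arrays.

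Sterol synthesis showed a split inside the Lac10 group. Over 19 genes the median level was 7.16, 7.82 and 8.30 at Lac10, against 7.66, 7.68 and 7.42 at dp12, so replicate 1 lay below the dp12 arrays and the others above them. The median difference was 0.43, 2 genes did not overlap and both were higher, 0 passed with all arrays, and 5 passed as higher without replicate 1. Insig1, the sterol sensor that restrains SREBP processing, was at 8.67, 10.72 and 11.19 at Lac10, against 8.89, 8.91 and 7.75 at dp12, and passed there at 2.44. Tm7sf2, a sterol reductase, passed at 1.41, Fdps at 1.36, Lss, the synthase that forms lanosterol, at 1.31 and Mvd at 1.21.

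Among 22 genes of triglyceride assembly and the milk fat globule, 8 had higher and 2 had lower non-overlapping Lac10 arrays (median 0.32). Btn1a1, butyrophilin of the globule membrane, stood at 10.69, 11.73 and 11.79 at Lac10, against 9.24, 10.46 and 9.00 at dp12 (difference 1.84, adjusted p = 0.159). Cidea, a lipid droplet protein, measured 8.19, 11.64 and 11.82 at Lac10, against 7.37, 8.23 and 7.30 at dp12, and passed without replicate 1 at 4.10 (SE 0.70, adjusted p = 0.00409). Agpat1, an acyltransferase of glycerolipid assembly, passed there at 1.47.

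Of 27 transporters that move ions, nutrients and water, 7 had higher and 3 had lower non-overlapping Lac10 arrays (median 0.31), and 6 passed as higher without replicate 1. Atp2b2, the calcium pump that exports calcium into milk, was at 5.65, 9.85 and 9.79 at Lac10, against 5.25, 5.54 and 5.03 at dp12. Replicate 1 lay next to the dp12 arrays, and the difference was 3.15 (adjusted p = 0.128) with it and 4.54 (SE 0.77, adjusted p = 0.00406) without it. Atp2c2, a calcium and manganese pump of the secretory pathway, was at 8.50, 10.39 and 10.69 at Lac10, against 7.27, 8.26 and 7.06 at dp12 (3.01 without replicate 1). Slc34a2, a sodium and phosphate cotransporter, had 9.42, 11.73 and 11.95 at Lac10, against 8.14, 9.58 and 7.08 at dp12 (3.57 without replicate 1). The zinc transporters Slc39a8 and Slc30a2 passed there at 3.40 and 2.65, and 0 of the 27 passed as lower there. Slc39a4, a zinc importer that is not among the 27, there fell by 2.65.

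No gene of the list for protein folding and export passed. Of its 40 genes of the secretory pathway and unfolded protein response, 3 had higher and 14 had lower non-overlapping Lac10 arrays, the median was -0.15, and 0 passed with or without replicate 1. Creld2 and Ddit3, which respond to stress of the endoplasmic reticulum, differed by -0.75 and -0.64. Fkbp11, a folding enzyme that is not on that list, had a difference of 1.61 and passed as higher without replicate 1, at 2.17 (adjusted p = 0.00345). The median of 42 respiratory chain genes was -0.06 and changed sign with housekeeping centring (0.07). In that list 2 genes were higher and 8 lower without overlap, and 0 passed in either fit. Of 46 cytosolic ribosomal protein genes, 1 was higher and 27 were lower without overlap (median -0.31), with 0 past the threshold in either fit. Rpl14 was at 9.05, 8.71 and 8.50 at Lac10, against 9.54, 9.51 and 9.45 at dp12 (difference -0.74, adjusted p = 0.323). Serine, glycine and one-carbon genes had a median of -0.22 over 18 (-0.08 with housekeeping centring), with 1 higher and 7 lower without overlap. Ahcy, which breaks down S-adenosylhomocysteine, was at 8.18, 7.07 and 7.33 at Lac10, against 9.04, 8.31 and 9.29 at dp12 (difference -1.35), and did not pass in either fit. Gldc, the glycine decarboxylase, stood at 9.41, 10.16 and 10.74 at Lac10, against 8.10, 8.98 and 7.47 at dp12. Gldc and Aldh1l1, a folate enzyme, passed as higher without replicate 1, at 2.27 and 1.72.

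**Figure D3:**
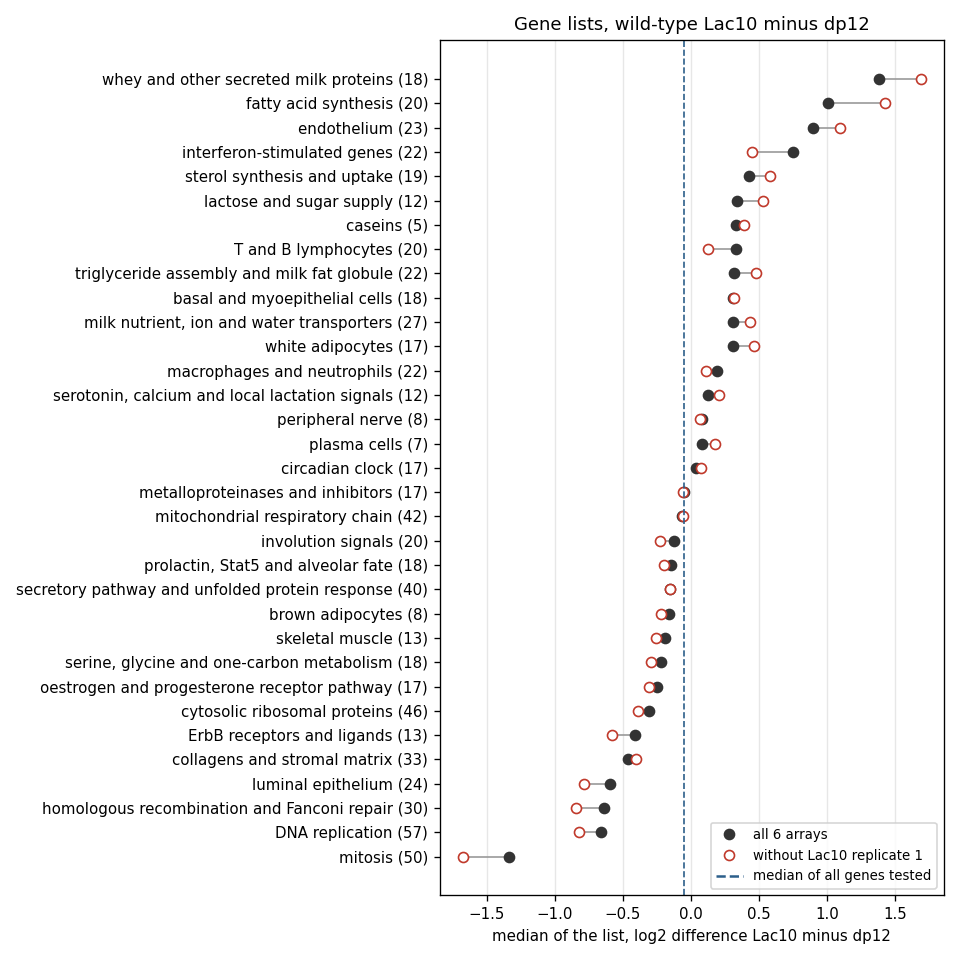
Median log2 difference, Lac10 minus dp12 in wild type (horizontal axis), of 33 gene lists with the number of genes tested in brackets, with all 6 arrays (filled) and without Lac10 replicate 1 (open); the dashed line is the median of all genes tested. Whey proteins (1.38), fatty acid synthesis (1.00) and endothelium (0.90) lie highest and mitosis (-1.33) lowest.

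Cell division genes lay lower at Lac10. In the mitosis list, 49 of 50 genes had Lac10 arrays below the dp12 arrays without overlap, 0 were above, and all 50 differences were negative (median -1.33; range of the median from -1.68 to -1.11 when 1 array was left out). The median level of the list was 6.86, 5.59 and 6.00 at Lac10, against 7.81, 7.32 and 7.74 at dp12. None of the 50 passed in the fit of all arrays, and 36 fell without replicate 1. Kif11, the spindle motor that pushes the poles apart, measured 7.24, 5.57 and 5.87 at Lac10, against 8.31, 7.77 and 8.58 at dp12, with a difference of -1.99 (SE 0.51, adjusted p = 0.081). Without replicate 1 it fell by 2.50 (SE 0.52, adjusted p = 0.0126). Ect2, an exchange factor for cytokinesis, the kinetochore protein Ndc80, cyclin B2 (Ccnb2) and the centromere motor Cenpe also fell there, with differences of -2.52, -2.44, -2.39 and -2.27. Mki67, the Ki-67 antigen, was at 8.79, 8.43 and 8.92 at Lac10, against 9.64, 9.34 and 9.61 at dp12, and did not pass in either fit (differences of -0.81 and -0.85).

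The promoter windows of Kif11 and Ccnb2 are shown because the mitosis list moved together. Capitals mark TTTGAA or its reverse complement TTCAAA, the core of the cell cycle homology element, and CCAAT or its reverse complement ATTGG, the box that NF-Y binds. The windows are as above, with Kif11 at chr19:37376132-37376431 on the plus strand and Ccnb2 at chr9:70421505-70421804 on the minus strand.
Kif11: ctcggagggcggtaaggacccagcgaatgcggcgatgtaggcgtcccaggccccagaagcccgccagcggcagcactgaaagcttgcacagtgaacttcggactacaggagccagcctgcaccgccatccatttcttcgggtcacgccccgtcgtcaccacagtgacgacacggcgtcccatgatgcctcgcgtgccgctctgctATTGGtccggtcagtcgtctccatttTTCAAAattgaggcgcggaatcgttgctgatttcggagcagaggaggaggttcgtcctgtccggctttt
Ccnb2: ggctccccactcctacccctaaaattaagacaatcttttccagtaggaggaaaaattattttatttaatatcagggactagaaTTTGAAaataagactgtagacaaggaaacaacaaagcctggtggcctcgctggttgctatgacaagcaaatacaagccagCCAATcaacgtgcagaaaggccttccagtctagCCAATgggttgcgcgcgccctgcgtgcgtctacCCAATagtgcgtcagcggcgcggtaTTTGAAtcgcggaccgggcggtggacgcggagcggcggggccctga
Kif11 held 1 match of each motif, and Ccnb2 held 2 of the first and 3 of the second, with no overlap between matches. Of 42 mitosis genes with a window, 30 (71.4%) held TTTGAA or TTCAAA and 30 (71.4%) held CCAAT or ATTGG, while the shares over the 27025 genes with a window were 20.2% and 41.1%. The share with CCAAT or ATTGG was not particular to the mitosis list. It was 15 of 15 in sterol synthesis and 70.6% in fatty acid synthesis, whose median differences were positive. Other lists had less, such as whey and other secreted milk proteins at 33.3%. TTTGAA or TTCAAA was held by 6.67% of the sterol genes and 17.6% of the fatty acid genes. A match describes these letters and is not evidence of binding.

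DNA replication and repair genes were lower too, by less. Among 57 replication genes, 39 had lower and 1 had higher non-overlapping Lac10 arrays (median -0.66), and 13 fell without replicate 1. Prim1, the primase subunit that starts new strands, measured 6.25, 4.88 and 5.29 at Lac10, against 7.29, 6.65 and 7.15 at dp12, and there fell by 1.95. Rrm1, of the reductase that makes deoxynucleotides, the helicase subunits Mcm6 and Mcm7 and the origin-firing factor Ticrr also fell there, with differences of -1.89, -2.03, -1.90 and -1.71. Replicate 1 lay between the dp12 arrays and the other Lac10 arrays in all 5 of these genes.

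Of 30 genes of homologous recombination and Fanconi repair, 19 had lower and 0 had higher non-overlapping Lac10 arrays (median -0.64), and 9 fell without replicate 1. Brca1 stood at 5.55, 4.64 and 5.39 at Lac10, against 6.43, 5.74 and 6.13 at dp12, a difference of -0.91 (SE 0.31, adjusted p = 0.197) that also missed the threshold without replicate 1 (-1.09, adjusted p = 0.0878). Brca2, which acts in repair by homologous recombination, was at 6.11, 5.33 and 5.25 at Lac10, against 6.92, 6.29 and 6.67 at dp12, and fell by 1.34 without replicate 1. Bard1, the partner of BRCA1, there fell by 1.14. The damage-marking histone H2ax, the helicase Blm and the checkpoint kinase Chek1 fell too, with differences there of -1.44, -1.26 and -1.15.

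**Figure D4:**
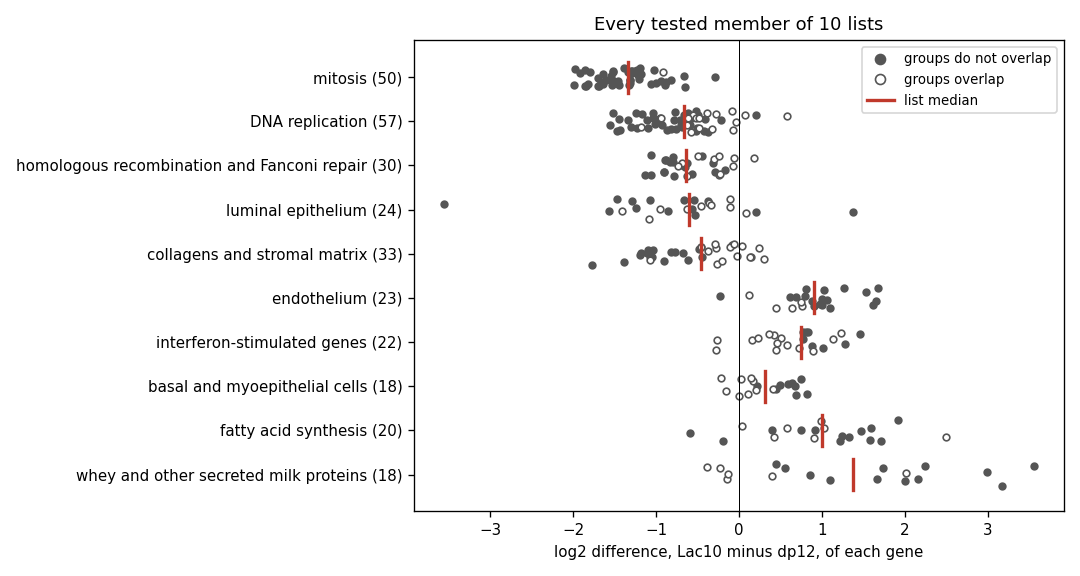
Log2 difference, Lac10 minus dp12 in wild type (horizontal axis), of every tested gene of 10 lists, 1 point a gene, filled where the groups do not overlap; red bars are list medians. All 50 mitosis genes lie left of 0, and 22 of 23 endothelial genes lie right of it.

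Genes of the hormone systems were divided. Of 17 genes of the oestrogen and progesterone receptor pathway, 7 had lower and 1 had higher non-overlapping Lac10 arrays (median -0.25). Pgr, the progesterone receptor, measured 4.76, 4.58 and 4.63 at Lac10, against 5.85, 5.77 and 6.53 at dp12, with a difference of -1.39 (SE 0.32, adjusted p = 0.0666), and fell by 1.45 without replicate 1. Its paracrine targets in the mouse gland went the same way. Wnt4 was at 7.01, 6.47 and 6.35 at Lac10, against 7.90, 8.31 and 7.95 at dp12, and fell by 1.64 without replicate 1. Tnfsf11, which encodes RANKL, was at 5.18, 5.00 and 5.31 at Lac10, against 7.12, 7.19 and 7.25 at dp12. Its arrays lay close together in each group, yet the difference of -2.03 (SE 0.55) had an adjusted p of 0.0963, and 0.0837 without replicate 1. The transcription factor Myb fell by 1.79 without replicate 1. A second probe set of the gene had the opposite sign in the difference of all 6 arrays. Esr1, the oestrogen receptor, was at 6.33, 7.94 and 8.03 at Lac10, against 7.12, 7.19 and 6.85 at dp12, so replicate 1 was the lowest of the 6 and the others the highest (difference 0.38, adjusted p = 0.741).

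The prolactin and Stat5 list had a median of -0.15 over 18 genes, near that of all genes, and its only calls without replicate 1 were the falls of Wnt4 and Erbb4. Stat5a measured 8.66, 9.00 and 9.23 at Lac10, against 8.28, 8.83 and 8.04 at dp12 (difference 0.58, adjusted p = 0.488). Elf5, the factor that sets alveolar fate, stood at 9.40, 9.29 and 9.57 at Lac10, against 9.14, 9.24 and 8.81 at dp12 (difference 0.36, adjusted p = 0.795). The prolactin receptor was not analysed here. Among 13 ErbB receptors and ligands, 6 had lower and 2 had higher non-overlapping Lac10 arrays (median -0.41). Egf, the growth factor found in milk, was at 4.99, 9.24 and 9.00 at Lac10, against 4.72, 4.69 and 4.81 at dp12: replicate 1 lay near dp12 and the others far above (difference 3.00, adjusted p = 0.0907; 4.38 and 0.000537 without replicate 1). The receptor Erbb4 was at 7.15, 6.12 and 6.28 at Lac10, against 7.82, 8.03 and 7.93 at dp12, and fell by 1.72 without replicate 1.

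Of the local lactation signals, 1 gene was higher and 1 lower without overlap among 12 (median 0.12). Igfbp5, a binding protein for insulin-like growth factors that marks involution, was at 10.19, 7.95 and 8.36 at Lac10, against 10.14, 10.52 and 10.38 at dp12. Tgfb2, a growth inhibitor, was at 8.70, 6.40 and 6.34 at Lac10, against 8.93, 9.17 and 8.60 at dp12. In both genes replicate 1 fell inside or beside the dp12 range, and without it they fell, with differences of -2.19 and -2.53. The involution list of 20 genes, to which Igfbp5 also belongs, had 7 higher and 3 lower genes without overlap (7 and 11 without replicate 1, where 25.2% and 37% of all genes had such arrays), and its median of -0.13 changed sign with housekeeping centring (0.01). Circadian clock genes had a median of 0.04 over 17, with 2 higher and 4 lower without overlap and 0 called in either fit; Bhlhe41 and Nr1d2 differed most, by -1.11 and -0.66.

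The next results are on markers of cell types, and in bulk RNA fewer cells of a type and less RNA per cell cannot be told apart. Sums are of linear values over a list. Over all genes tested the sum was 3499000, 3397200 and 3291100 at Lac10, against 3515900, 3578500 and 3568500 at dp12, so it too was lower at Lac10 without overlap. Luminal epithelial genes were lower at Lac10: 12 of 24 had lower and 2 had higher non-overlapping Lac10 arrays (median -0.60). The summed level was 20556, 11590 and 12803 at Lac10, against 25445, 23362 and 24396 at dp12, with replicate 1 between the groups. Cldn1, a tight junction claudin, measured 9.74, 5.94 and 6.72 at Lac10, against 11.24, 10.62 and 11.22 at dp12 (difference -3.56, adjusted p = 0.0807), and fell by 4.69 (SE 0.85, adjusted p = 0.00582) without replicate 1. Krt19, a luminal keratin, there fell by 1.95. Krt18, its relative, was at 11.14, 9.44 and 9.55 at Lac10, against 11.64, 11.45 and 11.74 at dp12 (difference -1.57, adjusted p = 0.444). Basal and myoepithelial genes had a median of 0.31 over 18, with 9 higher and 0 lower without overlap and 0 called in either fit. Their summed level was 12830 to 15739 at Lac10, against 10695 to 11670 at dp12. Actg2, a smooth muscle actin, was at 8.32, 8.23 and 8.25 at Lac10, against 7.68, 7.68 and 7.21 at dp12 (difference 0.74, adjusted p = 0.258).

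Endothelial genes were higher at Lac10 as a group, although none passed in either fit. The difference was positive in 22 of 23, and 17 had higher and 1 had lower non-overlapping Lac10 arrays (median 0.90, and 0.64 to 1.10 when 1 array was left out). The summed level was 9580, 17664 and 11806 at Lac10, against 5703, 6287 and 8093 at dp12. Gpihbp1, which carries lipoprotein lipase to the capillary lumen, measured 9.43, 10.52 and 9.81 at Lac10, against 8.14, 8.14 and 8.46 at dp12 (difference 1.67, SE 0.76, adjusted p = 0.369). Sox18, a transcription factor of vessels, was at 7.71, 8.61 and 7.56 at Lac10, against 5.97, 6.31 and 6.64 at dp12 (difference 1.65, SE 0.74, adjusted p = 0.359).

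**Figure D5:**
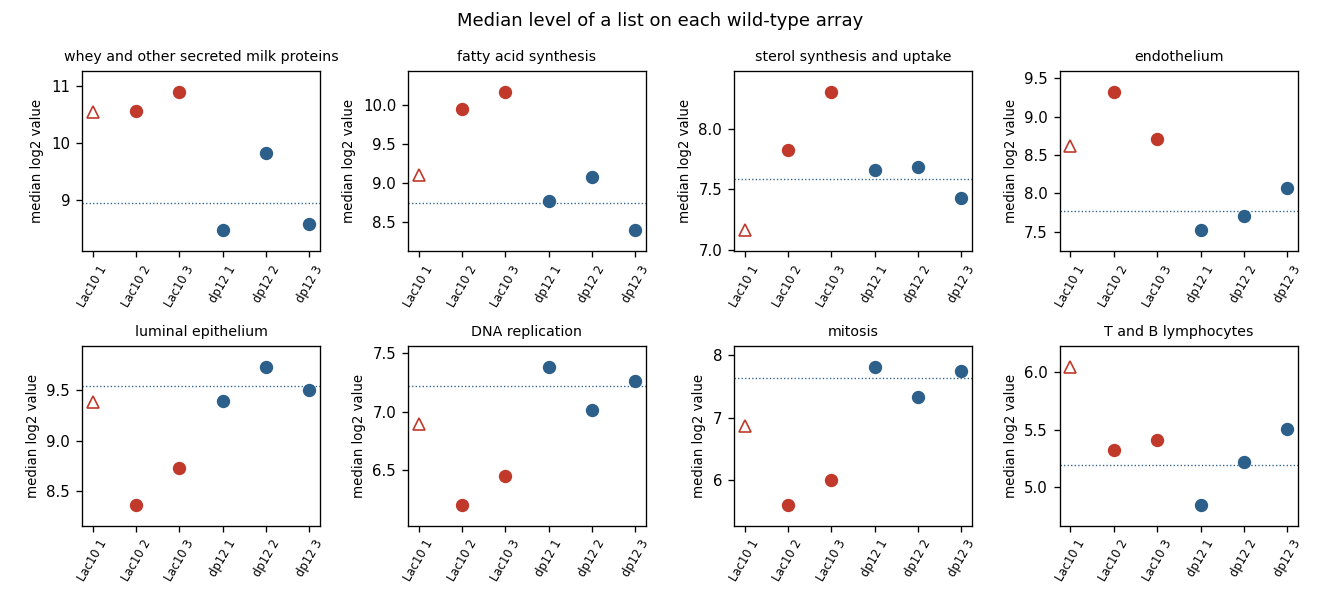
Median log2 level of 8 gene lists (vertical axes, each panel with its own range) on the wild-type Lac10 arrays (red, replicate 1 as an open triangle) and dp12 arrays (blue); the dotted line is the mean of the dp12 arrays. Replicate 1 lies with its group for whey proteins and endothelium, between the groups for mitosis and DNA replication, and apart from the other 5 arrays for sterol synthesis and for T and B lymphocytes.

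White adipocyte genes had 8 higher and 0 lower non-overlapping genes of 17 (median 0.31), and Lep was the only one that passed. The summed level was 7556, 10125 and 8460 at Lac10, against 4340, 5668 and 5776 at dp12, and 4 of the 17 lay at or below the median of the 22180 annotated genes on each Lac10 and dp12 array. Adipoq, the defining adipokine of these cells, named after its values were seen, was at 4.42, 4.98 and 4.50 at Lac10, against 4.46, 4.51 and 4.53 at dp12. Of the brown adipocyte list of 8 genes, Cidea and Otop1, a proton channel, passed as higher without replicate 1 (4.10 and 2.06), while the median was -0.16. Collagens and matrix genes were lower: 17 of 33 had lower and 0 had higher non-overlapping Lac10 arrays (median -0.46). Fn1, fibronectin, measured 9.24, 9.19 and 9.52 at Lac10, against 11.00, 10.83 and 11.44 at dp12, with a difference of -1.77 (SE 0.39, adjusted p = 0.0666), and fell by 1.73 without replicate 1. Lum, the proteoglycan lumican, differed by -1.39 with an adjusted p of 0.272. The metalloproteinase and inhibitor list had a median of -0.05 over 17 that changed sign with housekeeping centring (0.08). Its member Timp4, an inhibitor of metalloproteinases, stood at 8.19, 10.27 and 9.21 at Lac10, against 7.04, 7.06 and 6.32 at dp12 (difference 2.42, adjusted p = 0.301), and Adamts5, a proteoglycan-cleaving protease, passed as higher without replicate 1 at 2.40.

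Lymphocyte genes stood out on 1 array. All 20 differences were positive (median 0.33, and 0.12 without Lac10 replicate 1). Without overlap 3 (15%) were higher and 0 lower, against 12.9% and 23.5% of all genes. Without replicate 1 the counts were again 3 and 0, against 25.2% and 37% of all genes. For 8 of the 20, every Lac10 and dp12 value lay at or below the array median. The summed level was 2376, 1021 and 1202 at Lac10, against 767, 913 and 1409 at dp12. Cd3e, a chain of the T cell receptor complex, was at 8.68, 6.29 and 6.17 at Lac10, against 5.19, 5.97 and 6.42 at dp12, and the groups overlapped in value (difference 1.19, adjusted p = 0.538, and 0.37 without replicate 1). Interferon-stimulated genes had a median of 0.75 over 22, and 0.45 without replicate 1, with 8 higher and 0 lower without overlap. Cmpk2, a mitochondrial nucleotide kinase induced by interferon, measured 9.14, 9.61 and 9.82 at Lac10, against 7.74, 8.41 and 8.05 at dp12 (difference 1.46, adjusted p = 0.08), and passed without replicate 1 at 1.65. Rsad2, viperin, was at 8.59, 9.00 and 9.28 at Lac10, against 7.38, 7.42 and 8.25 at dp12 (difference 1.28, adjusted p = 0.257). The part of lymphocyte RNA in the interferon genes was not tested. Macrophage and neutrophil genes had 7 higher and 3 lower of 22 without overlap (median 0.19), and Cybb, the phagocyte oxidase subunit, differed by 1.06 (adjusted p = 0.592).

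Plasma cell genes had a median of 0.08 over 7, of which Derl3, a factor of protein degradation at the endoplasmic reticulum, passed as higher without replicate 1 at 2.33. Jchain, the joining chain of secreted antibodies, varied from 6.58 to 8.04 at Lac10 and from 5.24 to 8.65 at dp12. Of markers of other tissues, the summed level of 13 skeletal muscle genes was 759 to 866 at Lac10, against 879 to 955 at dp12, of 3 keratinocyte genes 145 to 209 against 196 to 250, of 8 nerve genes 990 to 1186 against 1147 to 1193, and of 2 red cell genes 105 to 141 against 115 to 127. The muscle sums did not overlap, and the others did. Sums over all genes tested did not overlap either, and 6 of the 13 muscle genes lay at or below the array median on each Lac10 and dp12 array. Mb, myoglobin, was the only one of these 26 genes to pass without replicate 1, where it fell by 0.89.

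Outside the lists, the largest changes without Lac10 replicate 1 were named by a rule added after values had been seen. Crhr1, the receptor for corticotropin-releasing hormone, measured 4.66, 8.65 and 8.45 at Lac10, against 4.89, 4.84 and 4.75 at dp12, and rose there by 3.72 (SE 0.23, adjusted p = 1.8e-08). Orm1 and Orm3, plasma acute-phase proteins whose sequences are alike, rose there by 3.44 and 3.58, Ceacam10, of the carcinoembryonic antigen family, by 3.54, and Pip, prolactin-induced protein, by 3.28. Among the falls, Muc4, a membrane mucin, measured 9.38, 5.23 and 5.30 at Lac10, against 9.41, 9.58 and 9.47 at dp12, and fell without replicate 1 (difference -4.22, SE 0.97, adjusted p = 0.0213). Atp6v1b1, a subunit of the vacuolar proton pump, the sodium pump subunit Atp1b1, Sidt1 and the lipoxygenase Alox12e also fell there, with differences of -3.43, -3.17, -3.05 and -3.01. They were followed by the Wnt potentiator Rspo1 and the stem cell factor receptor Kit, at -2.9997 and -2.96. Replicate 1 lay beside or inside the dp12 range in Crhr1 and Muc4. Over the 536 genes called without it, its value lay a median of 33.0% of the way from the dp12 mean to the mean of the other Lac10 arrays, 16.2% for the 190 higher and 38.8% for the 346 lower genes. It lay nearer to dp12 in 427 of the 536, and on the same side of the dp12 mean as the other Lac10 arrays in 481. The 536 were chosen by the gap between dp12 and the other Lac10 arrays. That choice by itself tends to place a left-out array nearer to dp12.

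The mutant animals gave the same step on 6 other arrays, and with all arrays no gene passed the test of the difference between genotypes (0 of 15234, 0%; 1246 at an unadjusted p under 0.05). Without Lac10 replicate 1 that test called 59 genes (0.387%), 1 with a higher and 58 with a lower step in mutants. That fit left out an array of wild type only. The mutant Lac10 arrays all stayed, although replicate 1 of them matched wild-type virgin replicate 1 best (0.9466). No fit left out Lac10 arrays of both genotypes. In mutants 102 genes (0.67%) rose and 1312 (8.61%) fell, with a median of all genes of -0.28 against -0.05 in wild type, and mutant Lac10 replicate 2 had the lowest median correlation of the series (0.6995). The balance turned with housekeeping centring, where 1257 genes rose and 149 fell in mutants and the median of all genes was 0.39. Without the 3 arrays of lowest correlation, 91 genes rose and 689 fell in mutants, and the difference between genotypes called 0. Lrrc26 and Lep also rose in mutants (1.26, adjusted p = 0.0119, and 1.50, adjusted p = 0.0406), and AI506816 fell by 1.54 (adjusted p = 0.0159), which with housekeeping centring did not pass (-0.87, adjusted p = 0.0712). Gsdmc differed by 0.20 in mutants, Slc9a2 by -0.28 and Epha7 by -0.07, with no call. Drd4 differed by -0.99 in mutants and 2.83 in wild type (difference of the steps -3.82, SE 0.68, adjusted p = 0.105), and Pi15 by 0.60 and -1.63 (2.23, SE 0.43, adjusted p = 0.105). Fkbp11 had steps of -1.22 in mutants and 1.61 in wild type (adjusted p = 0.105). Without Lac10 replicate 1 the difference of the steps passed for Drd4 (-4.41, adjusted p = 0.00282), Pi15 (2.52, adjusted p = 0.00882), Fkbp11 (-3.39, adjusted p = 0.00282), Gsdmc (-3.91, adjusted p = 0.00202) and Slc9a2 (-2.62, adjusted p = 0.00202). Of these, Slc9a2 did not pass when housekeeping centring was applied as well (adjusted p = 0.052).

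By list, the mitosis median was -1.97 in mutants, where 47 of 50 fell, and -1.33 in wild type. With housekeeping centring the mutant median was -1.30 and 29 fell. The whey protein median was -0.09 in mutants and 1.38 in wild type, that of fatty acid synthesis -0.65 and 1.00, that of luminal epithelium -1.58 and -0.60, and that of white adipocytes 1.18 and 0.31. That scaling took the mutant medians to 0.57 for whey proteins and 0.02 for fatty acid synthesis, the opposite sign, and to -0.91 for luminal epithelium and 1.85 for white adipocytes. The mutant Lac10 arrays were split in some of these genes. Acaca was at 7.35, 7.37 and 10.18 on them, against 9.37, 9.41 and 8.70 at mutant dp12. Acacb was at 5.78, 6.85 and 9.89, against 6.80, 6.62 and 6.43. The part of this split in the mutant medians was not tested. Endothelium had medians of 0.93 in mutants and 0.90 in wild type. Csn1s2b rose by 4.55 in mutants (adjusted p = 0.0238), and Brca1 fell by 1.50 there (adjusted p = 0.012, and 0.0862 with housekeeping centring), against differences of 5.28 and -0.91 in wild type that did not pass. None of these differences between genotypes in a list has a test. Of the 728 genes on the lists, 0 passed the test between genotypes singly with all arrays, and 15 passed without Lac10 replicate 1, each with a lower step in mutants. The sterol list held 5 of the 15, among them Lss (-2.46, adjusted p = 0.00767) and Fdps (adjusted p = 0.014), and Lpo of the whey list was at -3.51 (adjusted p = 0.00882).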

How the data were processed

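The deposited log2 values were made by the authors with RMA, per the submitters' processing notes (no version stated), which includes background correction, quantile scaling across arrays and a summary per probe set. A change common to most genes is therefore lost. The genome build is not given in the sources used here. The platform annotation gives 1 symbol to 23521 of 41345 probe sets, several to 1814 and none to 16010; the first kind was used, 1 probe set per gene by highest mean, for 22180 genes, of which 21994 matched RefSeq. The filter asked for a value above the array median on 3 arrays or more and left 15234 genes. Values ran from 1.98 to 13.5.

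Groups came from the titles and stage labels. limma (3.58.1 in R 4.3.3) was fitted to all 24 arrays with 1 mean per group (16 residual and 4.346 prior degrees of freedom), tested on simulated data, with Benjamini-Hochberg adjustment over all genes. The number of arrays limits the precision. For lists, counts and medians are given and no test was run.

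The genes named were the largest rises and falls past the threshold with no overlap of the 2 groups, up to 5 called members of each list or the 2 of largest difference, and 10 genes followed throughout; the same rules were added for the fit without Lac10 replicate 1 after its values had been seen. The members and lists were chosen with earlier results of these data known. Alternatives covered probe set choice, filter, centring, variance trend, array weights, arrays in the fit, body weight, a replicate block and leaving out each array. Promoter windows were read with Python 3.11.15.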

Additional observations from a re-analysis of the deposited data

Results flagged for a closer look

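For 6 genes the mutant arrays moved one way between dp12 and Lac10 without overlap and the wild-type arrays the other. The difference of the steps, mutant minus wild type on the log2 scale, was -3.8102 for Apln, which encodes the vascular peptide apelin, -2.836 for the secretory folding enzyme Fkbp11, -2.3504 for Slc5a6, the sodium-dependent vitamin transporter, -2.1602 for the syntaxin Stx19, -1.7134 for Elf5, the alveolar transcription factor, and 1.2156 for Myl1, a light chain of muscle myosin. With all arrays none passed limma's test of that difference over all genes, and the lowest adjusted p was 0.103, for Apln. Without wild-type Lac10 replicate 1 it passed for Apln (adjusted p = 0.0196), Fkbp11 (adjusted p = 0.00282), Slc5a6 (adjusted p = 0.00432) and Stx19 (adjusted p = 0.0151), and missed for Elf5 (adjusted p = 0.457) and Myl1 (adjusted p = 0.327). Apln was at 7.0, 5.7 and 6.8 on the mutant Lac10 arrays, against 9.2, 8.8 and 8.4 on the mutant dp12 arrays, and at 8.66, 8.48 and 8.60 on the wild-type Lac10 arrays, against 7.29, 7.91 and 5.93 on the wild-type dp12 arrays. Slc5a6 and Stx19 fell in mutants (-0.999, adjusted p = 0.0466, and -1.12, adjusted p = 0.0256) and had wild-type differences of 1.35 and 1.04 that did not pass. Without Lac10 replicate 1 these passed at 1.71 (adjusted p = 0.00495) and 1.24 (adjusted p = 0.0306), while with housekeeping centring the falls in mutants did not pass (adjusted p = 0.387 and 0.239). Mutant Lac10 replicate 2, the array of lowest correlation with the rest, enters all 6 values.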

How the results depend on the processing

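The number of wild-type genes called moved with the model, the scaling and the arrays in the fit. Against 9 in the fit of all arrays, it was 4 with the median over probe sets, 4 with the stricter filter of 6 arrays, 23 with housekeeping centring, 62 with a variance trend, 482 with body weight as a covariate and 6553 with array weights. It was 49 with only the 6 arrays compared and 5 with only the 12 wild-type arrays. When 1 array was left out it ran from 0 to 536, and without Lac10 replicate 1 and mutant dp18 replicate 2 it was 558. Alternatives chosen after seeing the data gave 703 without the 3 arrays of lowest correlation, 970 with housekeeping centring without Lac10 replicate 1, 421 with the replicate block without it, and 5520 from the other 5 arrays alone. The difference between genotypes called 0, but 2344 with array weights, 0 to 59 when 1 array was left out (2 without dp12 replicate 2), 58 without both arrays named above, and 33 each with housekeeping centring and with the replicate block without Lac10 replicate 1.

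With the replicate number as a block, 0 genes were called in wild type (1808 at an unadjusted p under 0.05). Same-numbered Lac10 and dp12 arrays correlated in their deviations from the group mean at -0.026, 0.112 and -0.13, and differently numbered ones at -0.107 to 0.133. Same-numbered arrays were thus no more alike. Deviations from means of 3 arrays cannot decide whether the numbers mark a shared litter or batch.

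Of the genes named, 6 changed sign, and 0 of them was called. Cd3e and Cd3g, with differences of 1.19 and 1.16, went to -0.0549 and -0.157 with the block without Lac10 replicate 1, and Jchain, with 0.65, to -0.0978 there. When 1 array was left out, Jchain ran from -0.0601 to 1.64 (lowest without dp12 replicate 1), Klf1 from -0.0127 to 0.303 and Krt10 from -0.00626 to 0.306 (lowest without Lac10 replicate 3). Slc4a1 went to 0.0251 with housekeeping centring, 0.00102 with array weights, -0.222 to 0.000362 when 1 array was left out (highest without dp12 replicate 1), 0.113 with housekeeping centring without Lac10 replicate 1 and 0.0529 with the block without it. The cause was not tested.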
